A study of Oryza sativa with 36 samples.

Results

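Leaves of rice plants of the AgBi group were compared with leaves of plants grown directly from seed, the Seedling group, by RNA-seq. The comparison takes 4 libraries, AgBi replicates 1 and 2 and Seedling replicates 1 and 2, of 18 RNA-seq libraries in 9 groups, and covers all 55986 genes of the deposited table, of which 26374 had enough counts to be tested. All groups were Oryza sativa japonica, TNG67, kept in a greenhouse under natural light to the tillering stage. AgBi is read here as a group regenerated from calli that had gone through a combination of transformation treatments, and Seedling as the group that never passed through callus. The other groups used below are Callus+AM, Ag, AgTi, AMT+Ab, AMT+Hb and PB, together with Callus, the regenerated group whose name carries no further treatment. The abbreviations, AgBi included, are not spelled out in the labels and are kept as given. The labels call the 2 libraries of a group biological replicates of leaf samples, without saying which plants they came from. The p-values rest on the spread between the 2 libraries of a group, estimated over all 9 groups. They do not rest on the spread within AgBi and Seedling alone. RNA had been isolated with either of a pair of extraction kits, and the labels do not say which kit served which library.

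Plants raised from callus pass through a phase of dedifferentiated growth on hormone medium before shoots form again. In rice such plants are known to differ from seed-grown plants in DNA methylation and in gene expression, a phenomenon called somaclonal variation. Transformation procedures add further steps to the callus phase, among them contact with a DNA-delivering bacterium or with DNA-coated particles, selection and longer culture. Leaf RNA at tillering shows differences between groups at that stage only. In bulk leaf samples, fewer cells of a type and less RNA per cell cannot be told apart.

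The AgBi libraries held 30605151 and 33222427 counts, and the Seedling libraries held 49785176 and 52643973 counts. No AgBi library was as deep as a Seedling library, so depth and origin cannot be told apart from libraries of like depth. With every library thinned at random to 26609812 counts, the total of the smallest, 5687 genes passed the test, against 6098 at full depth. The 100 most abundant genes took 17.8% and 16.1% of all counts in AgBi, against 22.2% and 21.0% in Seedling. Genes are given by identifier and by the chromosome that the identifier names. None of the 55986 identifiers occurs in the RefSeq gene table of ASM3414082v1, so no gene name or function is attached, and leaf marker genes could not be looked up by name.

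About as many genes were higher as lower in AgBi, but the higher ones had changed further. Of 26374 genes tested, 3098 were higher and 3000 lower at an edgeR adjusted p below 0.05, which is 23.1% of genes in all, 11.7% higher and 11.4% lower. The median change was 2.40 on the log2 scale among higher genes and 1.40 among lower genes. Over 4-fold changes were counted at 1858 higher and 698 lower genes, and changes over 16-fold at 755 higher and 55 lower genes. The genes lower in AgBi held 14.4% and 11% of all counts in the AgBi libraries, against 27.7% and 28.4% in the Seedling libraries. The higher genes held 11.6% and 16.3% of counts in AgBi, against 3.40% and 3.15% in Seedling. These shares describe genes chosen by the same counts and are not a test.

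How firm the calls were depended on single libraries. Without AgBi replicate 2 the number of calls was 2592, without Seedling replicate 1 it was 2822 and without Seedling replicate 2 it was 2482, whereas without AgBi replicate 1 it was 6124. With only the 4 AgBi and Seedling libraries in the fit, 2136 genes were higher and 947 lower. Of the 6098 calls, both AgBi libraries lay beyond both Seedling libraries at 3066 higher and 2994 lower genes. Among all genes tested the same held for 8178 above and 8329 below Seedling. Against a fold of at least 1.5, 3174 genes passed, or 12% of genes. In every one of the 4 fits that leave out a library, 723 of the 3098 higher and 773 of the 3000 lower genes kept their call and direction. Among these the median log2 change was 2.90 for the higher genes and 1.74 for the lower genes. The median level of the 723 higher genes was 22.9 CPM (the count scaled to library size by TMM) in AgBi, 13.3 CPM in Callus and 2.62 CPM in Seedling. The median level of the 773 lower genes was 15.7 CPM in AgBi, 21.1 CPM in Callus and 54.8 CPM in Seedling. The Callus median lay between those of AgBi and Seedling in both sets. Both sets were chosen on the difference between AgBi and Seedling, so a group outside that choice tends to fall between them. The order of these medians is therefore not a result about Callus.

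Of the 20276 genes that did not pass, 4413 had a 95% interval of the fold change that lay within 2-fold in both directions. For another 7428 the interval reached beyond 4-fold, so a 4-fold change at these genes was neither called nor excluded.

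The 2 AgBi libraries lay at different distances from Seedling. On the log2(CPM + 1) scale, replicate 1 was more than 2-fold from the Seedling mean at 19.5% of genes and replicate 2 at 27.8%. Among the 16 regenerated libraries, ranked by the median absolute difference from the Seedling mean, replicate 1 was the third nearest, after the 2 Callus libraries, and replicate 2 was at rank 10. Replicate 1 was the nearer of the pair at 15820 genes and replicate 2 at 10392. Both libraries were more than 2-fold above the Seedling mean at 2032 genes and more than 2-fold below it at 1635 genes. Only replicate 2 passed 2-fold at 1647 genes above and 1979 genes below, and only replicate 1 at 811 above and 625 below. They lay on opposite sides of Seedling, both over 2-fold, at 46 genes.

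**Figure D1:**
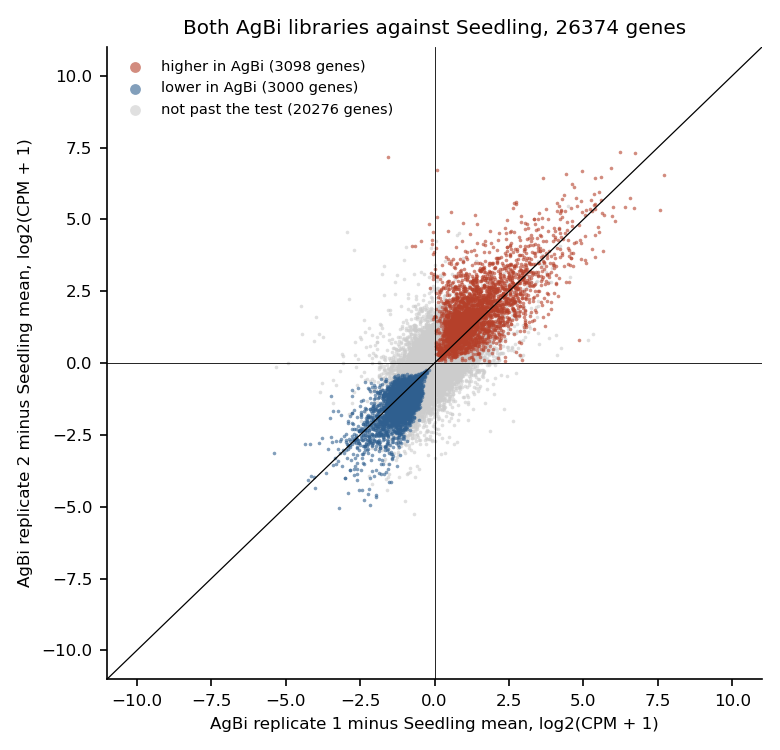
Difference of AgBi replicate 1 (x axis) and AgBi replicate 2 (y axis) from the mean of the 2 Seedling libraries, in log2(CPM + 1), for each of 26374 genes. Red points are the 3098 genes higher in AgBi, blue points the 3000 genes lower, grey points those not past the test, and the diagonal marks equal differences; most coloured points lie in the quadrants where both libraries moved the same way.

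Gaps of over 10-fold between the AgBi libraries were found at 189 genes. The other groups ranged from 31 such genes in AMT+Ab and Seedling to 788 in Callus+AM. Over 2-fold, on the log2(CPM + 1) scale, the AgBi libraries lay apart at 3184 of the genes tested. For that gap the other groups ranged from 615 genes in AgTi to 4669 in Callus+AM. Among 19927 genes with a mean of at least 1 CPM in AgBi, 67 were over 10-fold higher in replicate 1 and 122 over 10-fold higher in replicate 2. The 122 genes had a median of 0.602 CPM in AgBi replicate 1 and 18.6 CPM in AgBi replicate 2, against 1.45 and 0.515 CPM in the Seedling libraries. Of these, 45 still passed the test as higher in AgBi, although AgBi replicate 2 carried the difference. The 67 genes had a median of 6.47 and 0.338 CPM in the AgBi libraries, against 0.319 and 0.792 CPM in Seedling, and 7 of them passed.

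**Figure D2:**
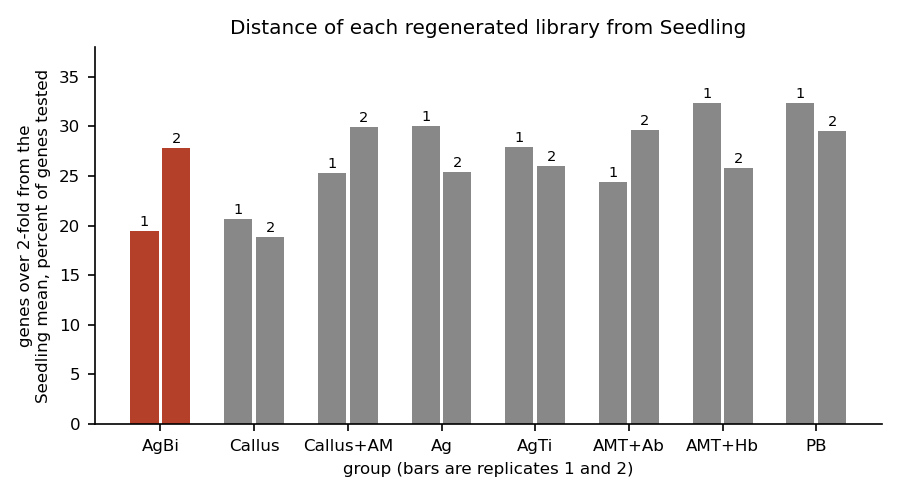
Percent of tested genes whose level in each regenerated library was more than 2-fold from the Seedling mean, on the log2(CPM + 1) scale, by group, with replicates 1 and 2 side by side. AgBi replicate 1 stands at 19.5% and replicate 2 at 27.8%, while the other 14 libraries lie between 18.9% and 32.4%.

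Both direction and frequency of change varied with the level of a gene. Below a mean log2 CPM of 0, 6.84% of 5367 genes were higher and 4.60% lower. Between 0 and 2, 14.1% of 4447 genes were higher and 8.03% lower. At 8 and over, 10% of 588 genes were higher and 17.3% lower. Low genes that changed were thus mostly higher in AgBi, and the most abundant genes that changed were mostly lower. The median absolute change of called genes was 3.36 on the log2 scale in the lowest band and 1.46 in the highest.

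Transcript length also moved with the direction. The length of each gene relative to the others was read from the ratio of its counts to its FPKM (the deposited value scaled by transcript length), and genes were divided into 5 classes of equal size, a split chosen after the values were seen. In the longest class 16.9% of 5102 genes were higher in AgBi and 6.04% lower, while in the shortest class 8.21% of 5103 genes were higher and 14.1% lower. The median log2 fold change was 0.29 in the longest class and -0.27 in the shortest. Both libraries showed it on the log2(CPM + 1) scale. The longest class had a median difference from Seedling of 0.217 in AgBi replicate 1 and 0.135 in replicate 2, and the shortest class had -0.135 and -0.138. Within bands of level the longest class had more higher than lower genes in all 6 bands, but the shortest class had more lower genes only from a mean log2 CPM of 0 upwards. Below 0 its shares were 6.98% higher and 6.92% lower, and between 0 and 2 they were 10.4% higher and 11.1% lower. Between 4 and 6, 18.2% of the longest genes were higher and 5.30% lower, against 6.49% higher and 23.9% lower among the shortest. The part of transcript length or RNA quality in the calls was not tested.

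**Figure D3:**
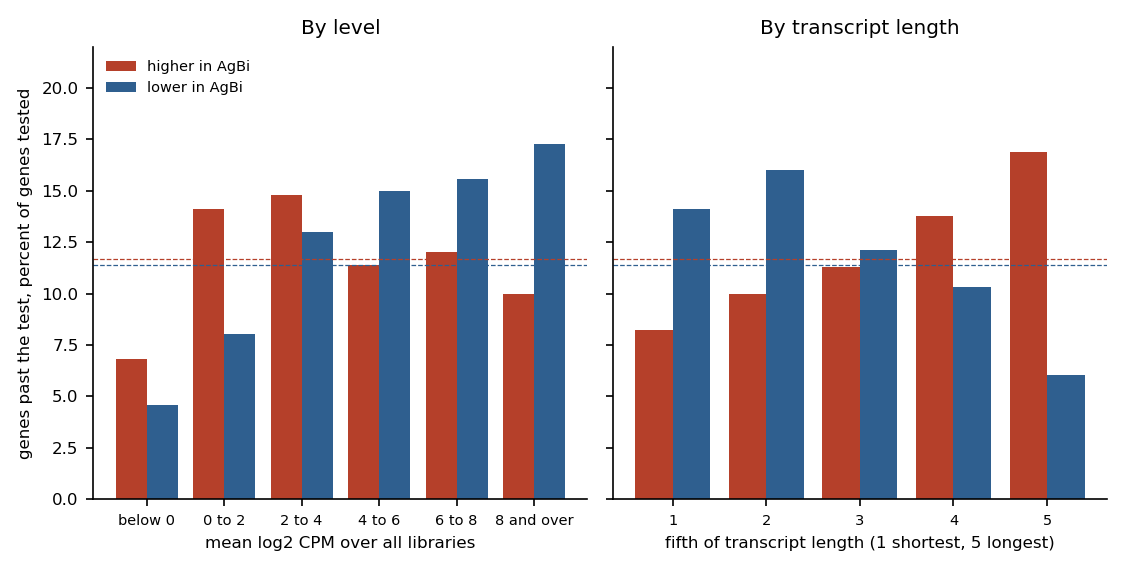
Percent of tested genes that were higher (red) or lower (blue) in AgBi than in Seedling, by band of mean log2 CPM over all libraries (left) and by class of transcript length, from 1 (shortest) to 5 (longest), with an equal number of genes in each (right). Dashed lines mark the shares over all genes, 11.7% higher and 11.4% lower; the share of higher genes is 8.21% in the shortest class and 16.9% in the longest.

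Switching on was more common than switching off. There were 41 genes with at least 1 CPM in both AgBi libraries and 0 counts in both Seedling libraries. The reverse, 0 counts in both AgBi libraries and at least 1 CPM in both Seedling libraries, held for 1 gene, LOC_Os09g19510 on chromosome 9, which was named after its values were seen. It had 0 counts in AgBi, against a mean of 5.38 CPM in Seedling. The 41 genes averaged between 1.12 and 113 CPM in AgBi, with a median of 5.30 CPM, and 31 of them passed the test. With all libraries thinned to the smallest, 64 genes were on in AgBi and at 0 in Seedling and 2 the reverse. Thinning equalised total counts, but not the size after TMM scaling, whose factors were 0.868 and 0.890 in AgBi and 0.693 and 0.720 in Seedling, and the part of depth in this excess was not tested further.

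These 41 genes were chosen on their levels in AgBi and Seedling, and the levels in the other groups did not enter the rule. In Callus they were nearly off, with 6 and 4 of the 41 at 1 CPM or more in replicates 1 and 2. PB had 35 and 31 of them at that level, AMT+Hb 33 and 26, and AMT+Ab 29 and 24. In the remaining groups the 2 libraries disagreed. Callus+AM had 16 in replicate 1 and 39 in replicate 2, Ag had 23 and 4, and AgTi had 5 and 18. No gene of the 41 was at 1 CPM or more in both libraries of all 7 other regenerated groups, and 6 were so in none of them. By the same rule, the 7 other regenerated groups had between 9 (Callus) and 150 (PB) genes on that were at 0 in Seedling. The reverse held for between 1 (Ag and AMT+Ab) and 6 (AMT+Hb) genes, so the excess of genes on was not particular to AgBi. These comparisons share the Seedling libraries.

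**Figure D4:**
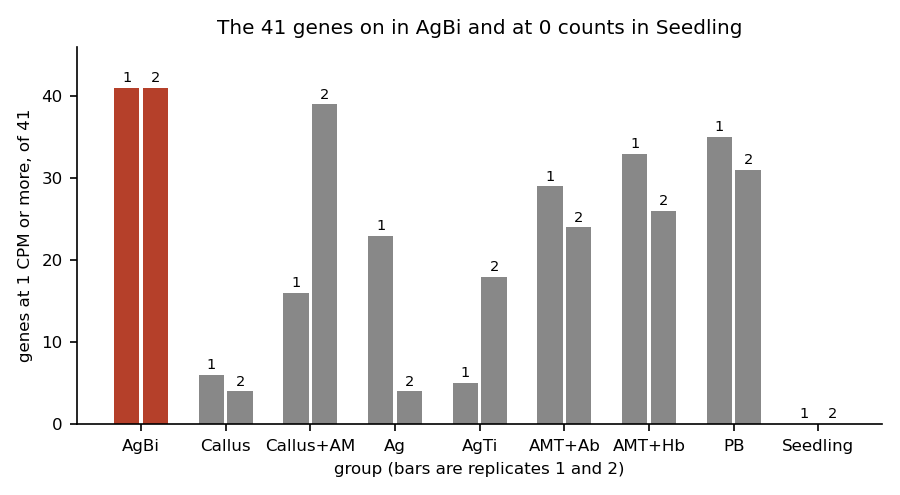
Number of the 41 genes on in AgBi and at 0 counts in Seedling that reached 1 CPM or more, by library, with replicates 1 and 2 side by side. All 41 are counted in AgBi and 0 in Seedling by the way they were chosen; the other libraries range from 4 in Ag replicate 2 and Callus replicate 2 to 39 in Callus+AM replicate 2.

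The genes with the largest changes, among those whose call held without any 1 of the 4 libraries, included 2 that were silent in Seedling. LOC_Os07g32710 on chromosome 7 had 23.4 and 26.1 CPM in AgBi, against 0 counts in both Seedling libraries. By counts alone it was at least 597-fold higher, taking 3 counts over both Seedling libraries as the floor (edgeR adjusted p = 0.00409). This bound leaves out the spread between samples (fitted log2 fold change 12.72, SE 2.32). Without Seedling replicate 1 or 2 the bound was 313-fold and 285-fold. PB held 41.5 and 16.1 CPM of this gene and Callus 2.05 and 2.34 CPM, so AgBi lay above Callus and within the span of PB. The remaining regenerated libraries all had counts of this gene. They ran from 0.388 CPM in Callus+AM replicate 1 to 29.7 CPM in Callus+AM replicate 2.

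LOC_Os09g09540 on chromosome 9 had 11.4 and 12.1 CPM in AgBi, against 0 counts in both Seedling libraries. By counts alone, with the same floor, it was at least 284-fold higher (edgeR adjusted p = 0.00682). The fitted log2 fold change was 11.64, with an SE of 2.37. The bound was 148-fold when Seedling replicate 1 was left out and 135-fold when Seedling replicate 2 was. Here the Callus libraries, at 19.3 and 9.86 CPM, enclosed the AgBi levels, whereas both Ag libraries were below 0.1 CPM, at 0.0681 and 0.0536 CPM. The 2 genes switched on in AgBi thus differed in their levels across the other regenerated groups.

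LOC_Os01g57082 on chromosome 1 had 0.0376 and 0.102 CPM in AgBi, from 4 counts in all, against 11.1 and 23.4 CPM in Seedling. The fitted difference was -7.85 on the log2 scale (SE 0.864, adjusted p = 0.000346 by edgeR). It was -8.70 without AgBi replicate 2 and -7.22 without Seedling replicate 2. Of the 14 other regenerated libraries the highest was AgTi replicate 2, at 0.301 CPM. Low levels of this gene were therefore shared by all 16 regenerated libraries.

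LOC_Os05g12450 on chromosome 5 had 4.56 and 5.45 CPM in AgBi, against 89.6 and 104.7 CPM in Seedling (log2 fold change -4.28, SE 0.611, edgeR adjusted p = 0.00113). The other regenerated libraries spread from 1.30 CPM in PB replicate 1 to 33.99 CPM in Ag replicate 1. AgBi lay close to Callus, at 4.57 and 5.14 CPM, and below both libraries of Ag, AgTi and AMT+Hb.

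AgBi was next set against Callus, the regenerated group with no further treatment in its name. Here 1179 genes were higher (4.47%) and 1217 lower (4.61%), 9.08% of the genes tested. These calls, too, depended on single libraries. Without Callus replicate 1 there were 218 calls, without Callus replicate 2 there were 609, without AgBi replicate 2 there were 459 and without AgBi replicate 1 there were 2906. Only 43 higher and 88 lower genes kept their call in all 4 of these fits. With the 4 AgBi and Callus libraries alone in the fit, edgeR called 0 genes, with 6762 at an unadjusted p below 0.05, while DESeq2 fitted on all 18 libraries called 4905.

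The named genes of this comparison also had unlike levels among the other groups. LOC_Os01g27360 on chromosome 1 had 27.5 and 31.4 CPM in AgBi, against 1.67 and 1.41 CPM in Callus (log2 fold change 4.26, SE 0.351, edgeR adjusted p = 0.000349). Seedling, at 41.4 and 31.3 CPM, PB and AMT+Ab were as high as AgBi or higher, from 27.5 to 45.1 CPM. Callus+AM, Ag, AgTi and AMT+Hb lay between 2.83 and 11.3 CPM.

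LOC_Os01g65140 on chromosome 1 gave the mirror image. It had 0.565 and 0.203 CPM in AgBi, against 11.8 and 19.4 CPM in Callus (log2 fold change -5.35, SE 0.537, edgeR adjusted p = 0.00117). Leaving out AgBi replicate 1 gave -6.24. Seedling (0 and 0.0528 CPM), PB and AMT+Ab reached at most 0.321 CPM, and Callus+AM, Ag, AgTi and AMT+Hb ranged from 12.4 to 43.7 CPM. At both genes AgBi, AMT+Ab, PB and Seedling did not overlap with the other 5 groups. That AgBi and Callus did not overlap was part of the rule that chose these genes. The share of all genes tested with this grouping was not counted, so it is no result about the groups.

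LOC_Os11g36000 on chromosome 11 had the same grouping at lower levels. It had 0.188 and 0.203 CPM in AgBi, against 3.50 and 2.89 CPM in Callus (log2 fold change -4.00, SE 0.555, edgeR adjusted p = 0.00470). Seedling stood between them at 0.522 and 0.897 CPM. LOC_Os09g26670 on chromosome 9 had 16.6 and 26.4 CPM in AgBi, against 0.580 and 0.274 CPM in Callus (log2 fold change 5.65, SE 0.818, edgeR adjusted p = 0.00483). Leaving out Callus replicate 1 gave 6.28. For this gene AgBi was the highest of all 9 groups, above AMT+Ab at 5.05 and 7.87 CPM and Seedling at 2.23 and 2.77 CPM. With only AgBi and Callus in the fit, none of the 4 genes passed the test (edgeR), at log2 fold changes of 5.62 for LOC_Os09g26670, 4.22 for LOC_Os01g27360, -5.40 for LOC_Os01g65140 and -4.04 for LOC_Os11g36000.

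**Figure D5:**
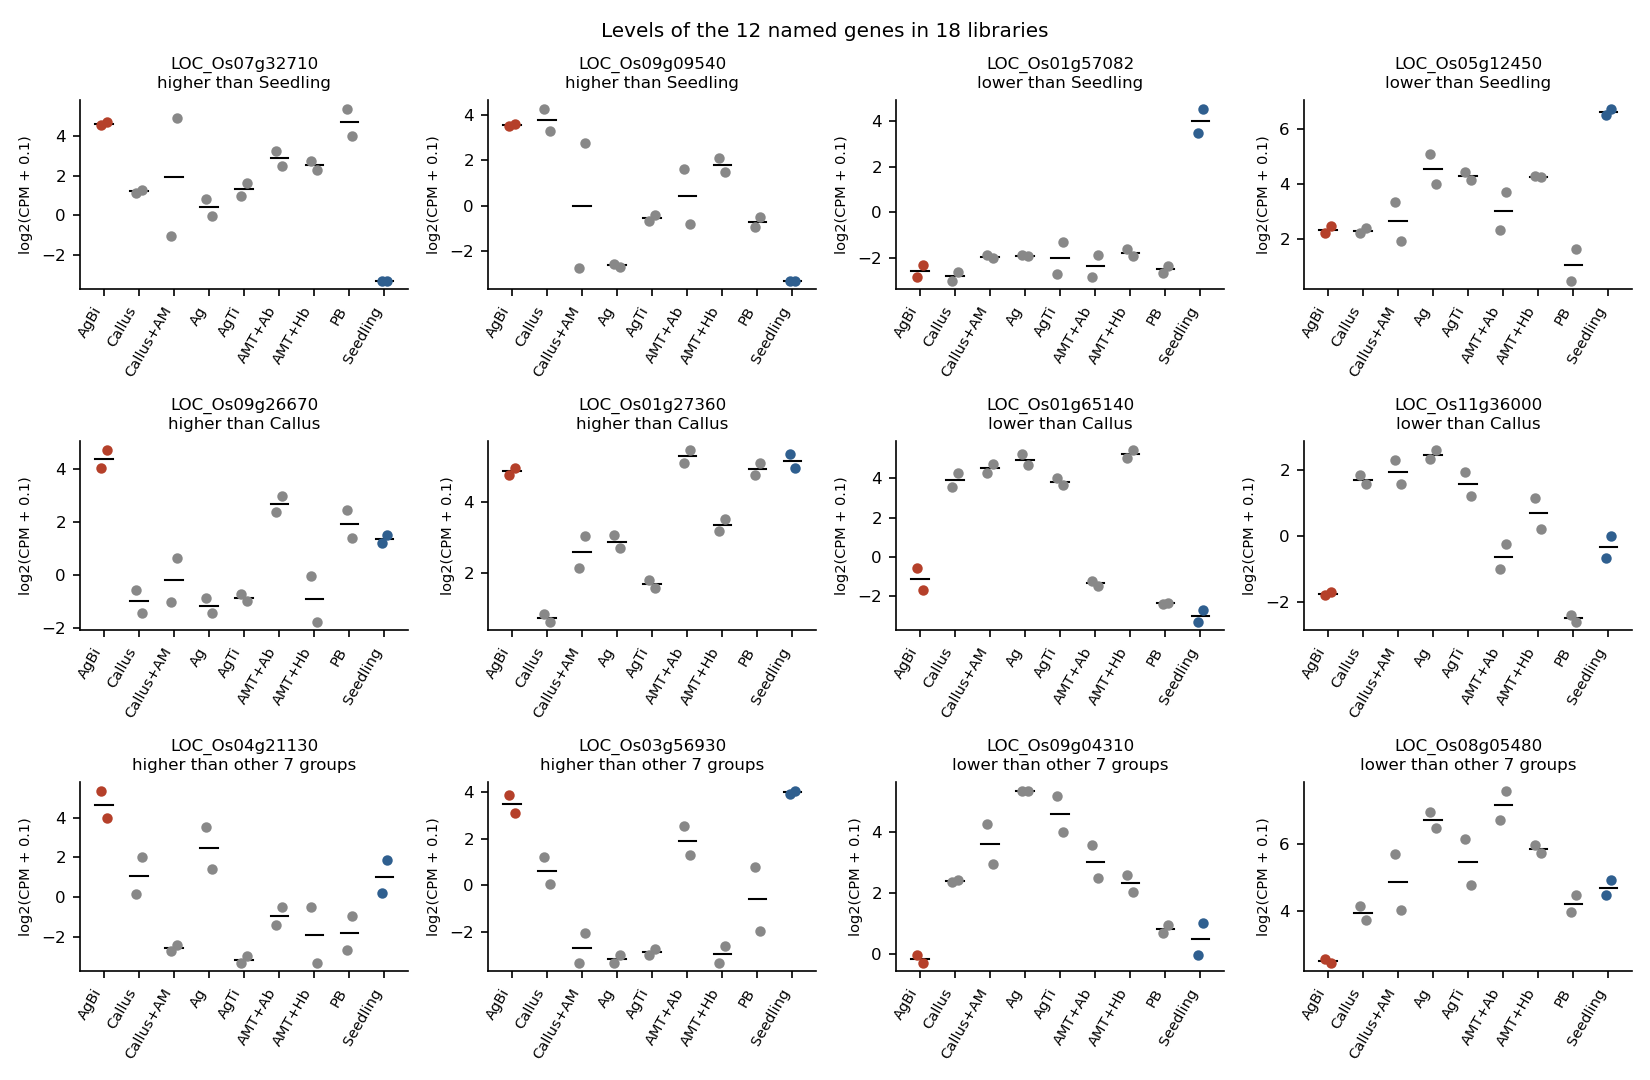
Level of each of the 12 named genes in log2(CPM + 0.1) on the y axis, by group on the x axis, AgBi in red, Seedling in blue and the other regenerated groups in grey. Points are single libraries and bars the mean of both on that scale. LOC_Os01g57082 is low in all 16 regenerated libraries. At LOC_Os01g27360 and LOC_Os01g65140 the AgBi levels lie near those of AMT+Ab, PB and Seedling.

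Where AgBi differed from regenerated plants in general was tested against the equal-weight mean of the other 7 regenerated groups, a contrast that gives the Seedling libraries no weight, although they entered the scaling and the estimate of the spread. In AgBi, 3154 genes were higher and 2034 lower than this mean, 19.7% of genes in all, 12% higher and 7.71% lower. With Seedling left out of the fit, 2841 genes were higher and 2118 lower. Without AgBi replicate 1 there were 3116 calls, and without AgBi replicate 2 there were 2138. Higher calls were 60.8% of the total here, and 70.9% with no filter on low counts. Of the higher genes 2032, and of the lower genes 1386, differed over 2-fold. The transcript length split was present here too. In the longest class 18.9% of genes were higher and 4.59% lower, against 6.76% higher and 9.95% lower in the shortest. Against Callus it was smaller, with 5.27% higher and 4.41% lower in the longest class and 3.21% and 4.88% in the shortest. Set against Seedling, the longest class had median differences of 0.322 and 0.280 in the PB libraries on the log2(CPM + 1) scale. In the AMT+Ab libraries they were -0.0723 and -0.282, so regenerated groups differed in its direction.

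LOC_Os04g21130 on chromosome 4 had 40.96 and 15.6 CPM in AgBi, against means of 0.0125 CPM in AgTi to 7.11 CPM in Ag among the other 7 groups (log2 fold change 6.33, SE 0.672, edgeR adjusted p = 0.000133). Leaving out AgBi replicate 1 gave 5.47, and leaving out AgBi replicate 2 gave 6.86. Seedling held 1.04 and 3.51 CPM, so AgBi was also the highest of the 9 groups. LOC_Os03g56930 on chromosome 3 had 14.8 and 8.46 CPM in AgBi, against means of 0.0134 CPM in Ag to 4.07 CPM in AMT+Ab (log2 fold change 5.88, SE 0.589, edgeR adjusted p = 8.71e-05). Seedling, at 15.1 and 16.6 CPM, was higher still, and AgBi was the regenerated group nearest to it.

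LOC_Os09g04310 on chromosome 9 had 0.866 and 0.710 CPM in AgBi, against means of 1.67 CPM in PB to 40.4 CPM in Ag (log2 fold change -3.52, SE 0.536, edgeR adjusted p = 0.00119). Seedling was also low, at 0.870 and 1.90 CPM, and its libraries enclosed those of PB, at 1.51 and 1.82 CPM. LOC_Os08g05480 on chromosome 8 had 5.87 and 5.38 CPM in AgBi, against means of 15.3 CPM in Callus to 149 CPM in AMT+Ab (log2 fold change -3.04, SE 0.512, edgeR adjusted p = 0.00218). Seedling, at 21.99 and 30.3 CPM, lay within the range of the other groups, so this gene was lower in AgBi than in any other library.

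The tests against Seedling and against the mean of the other 7 groups were crossed gene by gene. Some genes had calls in opposite directions and others in the same direction. A call against that mean does not place AgBi beyond each of the 7 groups. The tests share the AgBi libraries, so counts in the same direction are not independent of each other. Of the 3098 genes higher than Seedling, 61 were lower than the mean of the other 7 groups. Of the 3000 genes lower than Seedling, 317 were higher than the mean of the other 7 groups. Over all 26374 genes tested, 7.71% were lower than this mean and 12% higher, and neither count was above that share. Higher than both Seedling and this mean were 828 genes (3.14% of genes tested), and lower than both 632 (2.4%). Of the 20276 genes that did not pass against Seedling, 2009 were higher and 1341 lower than the mean of the other 7 groups.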

How the data were processed

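The authors deposited estimated counts per gene and FPKM values for 18 RNA-seq libraries. Bisulfite samples are not analysed here. Per the submitters' processing notes the tools were TopHat, Cuffnorm and Cuffdiff; their versions, the genome build and the strand setting are not stated. Because 0.707% of values in the count table had a fraction, estimated counts were rounded to integers. The deposited FPKM (library scale 0.940 to 1.04 times the one used here) served for an alternative and for relative transcript length. Overlapping or near-identical genes cannot be told apart in these tables.

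Genes were filtered with filterByExpr by group and scaled by TMM (trimmed mean of M values) in edgeR 4.0.16 under R 4.3.3. The robust quasi-likelihood model had a term for each group over all 18 libraries (9 residual degrees of freedom, common dispersion 0.146). Benjamini-Hochberg adjustment of the glmQLFTest p-values covered 26374 genes, and calls are at adjusted p below 0.05. SEs come from the F statistic. The script was tested on simulated data. Levels are TMM-scaled CPM. Alternatives were relative log expression (RLE) factors, no filter, DESeq2 1.42.0, limma 3.58.1 on log2(FPKM + 1) or log2(FPKM + 0.1), only the groups compared, a replicate block, glmTreat, thinning and leaving out libraries. Fits that leave 1 library in a group assume it to vary like the others.

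Named genes are the 2 higher and 2 lower per comparison with the largest log2 fold change among called genes with a mean log2 CPM of at least 1, non-overlapping libraries and a call kept in every fit without 1 library of the groups compared, or of AgBi where the mean of 7 groups was the other side. In that comparison both AgBi libraries had to lie outside the range of the 7 group means. Gene lists fixed by name could not be matched to identifiers, so no list was counted. The comparison and rules were chosen with earlier results of these data known.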

Additional observations from a re-analysis of the deposited data

How the results depend on the processing

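For AgBi against Seedling, the count of 6098 calls ranged from 4530 to 7834 with RLE factors, no filter, DESeq2, both limma fits, thinning and the replicate block. They were 3174 against 1.5-fold, 3083 with only the groups compared, and 2482 to 6124 without single libraries. Higher calls were 50.8% of the total, 69.3% with only the groups compared and 40.2% without Seedling replicate 2. For AgBi against Callus, the 2396 calls were 591 against 1.5-fold, 4905 with DESeq2, 0 with only the groups compared and 218 to 2906 without single libraries. Against the other 7 groups, the 5188 calls were 1635 against 1.5-fold and 2138 to 3116 without either AgBi library, without replicate 2 the lower and without replicate 1 the higher. The cause of these shifts was not tested beyond the loss of libraries. The 41 genes on in AgBi were 64 after thinning, 84 at 0.5 CPM, 26 at 2 CPM and 137 with up to 3 counts taken as silent, and the 1 gene off in AgBi was 2 after thinning and 8 with up to 3 counts. The replicate numbers are not stated to pair plants. The replicate differences of AgBi and Seedling correlated at -0.284 across genes, which are not independent. A replicate block gave 5283, 1666 and 4460 calls for the 3 comparisons, and a crossed block, chosen after seeing the data, gave 5735 for the first. The 4 named genes of AgBi against Callus lost their call with only the groups compared (edgeR adjusted p of 0.0558 to 0.0614). No named gene changed direction in any fit that included it. The limma fits did not include LOC_Os01g57082 and LOC_Os11g36000.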

Other observations

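By chromosome, the share of genes past the test against Seedling lay between 20.8% on chromosome 11 and 24.4% on chromosome 3. Chromosomes 11 and 12 had fewer lower genes than the rest, 8.34% and 8.51% against 11.4% over all genes, with 12.4% and 13.2% higher. On the other 10 chromosomes lower genes made up 10.2% to 12.9%.

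Genes next to each other in identifier order, which follows the chromosome, were called together somewhat more often than the overall share. The next tested gene was also higher for 16.5% of higher genes, against 11.7% of all genes, and also lower for 15.0% of lower genes, against 11.4%. Runs of at least 5 neighbours called in the same direction numbered 3 among higher and 2 among lower genes. The longest, on chromosome 3, held 7 genes with log2 fold changes of 1.05 to 5.07. Their mean levels ranged from 2.07 to 129 CPM in AgBi, from 0.237 to 19.2 CPM in Callus and from 0.137 to 20.1 CPM in Seedling.

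Both AgBi libraries lay above all 16 other libraries at 407 genes and below all of them at 470 genes, on the log2(CPM + 1) scale. By more than 2-fold they did so at 3 and 1 genes. Both PB libraries lay above all others by more than 2-fold at 138 genes, and both Seedling libraries at 290.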
